A study of Mus musculus with 12 samples.

Results

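The genes described here encode subunits of 4 families of chromatin complexes, NuRD, Polycomb, MLL and SWI/SNF, together with histone demethylases and acetyltransferases that work beside them. They are 41 named genes, and they were read as accessible regions of an ATAC-seq experiment, in which the transposase Tn5 cuts open chromatin and the reads at each region are counted. A region belonged to a gene when it overlapped the gene's protein-coding RefSeq body, or else when that body was the nearest within 100 kb. By this rule 689 of the 188262 regions of the count table belonged to the 41 genes, from 1 region for Ring1 to 140 for Arid1b. All 41 genes had a region, and 688 of the 689 regions passed the filter on low counts. The study compared long-term hematopoietic stem cells (LT-HSC) and multipotent progenitors (MPP) of male mice in 4 groups, each with 3 of the 12 libraries. WT mice carried a floxed, undeleted Phf6 gene without any Cre (genotype Phf6f/Y Rosa26+/+). KO mice carried the deleted gene and a tamoxifen-activated Cre recombinase (genotype Phf6-/Y Rosa26+/Cre-ERT2). Cre-ERT2 was present in every KO mouse and in no WT mouse, so loss of Phf6 and presence of the recombinase cannot be told apart. According to the labels, 20000 LT-HSC were sorted and their nuclei taken from individual mice 8 weeks after tamoxifen. The sources used here do not give the preparation of the MPP, the age of the mice or the markers used for sorting. Only for LT-HSC does the wording make the replicates separate animals, so the p-values of MPP comparisons may measure technical spread.

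NuRD combines a chromatin-remodelling ATPase with histone deacetylases and binds PHF6, the protein whose gene is deleted here. Polycomb repressive complex 2 (PRC2) methylates lysine 27 of histone H3, and Polycomb repressive complex 1 (PRC1) ubiquitinates histone H2A. Both keep developmental genes silent, and the PRC1 subunit Bmi1 is known for its part in stem cell self-renewal. MLL proteins methylate lysine 4 of histone H3 and sustain transcription, among others of Hox genes in blood stem cells. SWI/SNF uses ATP to slide or evict nucleosomes. Many of these genes are mutated in human leukemia.

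Library totals ran from 22665988 to 48547234 counts, and replicates of a group correlated at 0.971 to 0.982 across regions (log2 scale). The share of counts in regions within 1 kb of a gene end differed between the groups: LT-HSC libraries held 37.8 to 38.9% (WT) or 39.2 to 39.6% (KO) there, and MPP libraries 39.2 to 41.0% (WT) or 41.0 to 41.4% (KO). It moved with both population and genotype, so a share-adjusted fit, with this share as a covariate, is given beside the counts and many of the named calls. Of the calls between genotypes at member regions it ended 25 of 34 in LT-HSC and 41 of 62 in MPP. At gene-end regions of 7 LT-HSC marker genes, levels were summed in CPM (counts scaled to a common library total). The sum was 117 CPM in WT LT-HSC and 98.2 in WT MPP, with 60.98 and 50.03 of it at Ctnnal1. Of these 7 genes only Hlf was higher in WT MPP, with 23.05 CPM against 20.17 in WT LT-HSC (adjusted p = 0.024, edgeR). At gene-end regions of MPP markers the sums were 70.6 CPM in WT LT-HSC and 119 in WT MPP. Gene-end regions of macrophage markers summed to 13.6 CPM in WT LT-HSC and 31.3 in WT MPP, of T cell markers to 34.0 and 49.3 (31.3 and 44.0 of it at Cd3d), and of B cell markers to 5.29 and 5.12. In KO MPP the MPP markers stood at 102 CPM, macrophage markers at 32.6 and erythroid markers at 10.7, against 119, 31.3 and 8.55 in WT MPP. Among the MPP markers Cd48 went the other way, with 8.88 CPM in KO MPP against 7.04 in WT MPP (adjusted p = 0.055, edgeR). Of 17 erythroid marker regions 4 rose and 0 fell in KO MPP (adjusted p under 0.05, edgeR), against 5.08% and 3.61% of all regions. The part of these markers in the changes at member genes was not tested. No gene-end region was present for Dntt, Cd8a or Klf1. Phf6 itself had 10 regions, all with reads in every KO library. At its strongest, a gene-end region, the mean was 26.5 ± 1.05 CPM in WT and 27.4 ± 1.217 in KO LT-HSC, and 31.4 ± 0.915 and 28.6 ± 0.989 in MPP (SD, n = 3). The sources used here do not give the position of the deleted exons, so these regions do not check the genotype.

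The promoters of 4 genes are shown first as sequence, since the most one-sided differences among the 41 genes lay at start sites and these 4 start-site regions had the lowest p between the populations in both genotypes. Each line is a window of 300 bases of RefSeq promoter sequence (GRCm38.p6), 250 before the start site and 50 from it on, printed 5′ to 3′ on the gene's strand, with matches to the searched motifs in capitals. Kmt2a, whose product MLL1 methylates H3K4, is at chr9:44881240-44881539 on the minus strand. Eed, the PRC2 subunit that reads methylated H3K27, is at chr7:89980927-89981226 on the minus strand. Smarca4, the SWI/SNF ATPase Brg1, is at chr9:21615919-21616218 on the plus strand. Chd4, the main NuRD ATPase, is at chr6:125095913-125096212 on the plus strand.
Kmt2a: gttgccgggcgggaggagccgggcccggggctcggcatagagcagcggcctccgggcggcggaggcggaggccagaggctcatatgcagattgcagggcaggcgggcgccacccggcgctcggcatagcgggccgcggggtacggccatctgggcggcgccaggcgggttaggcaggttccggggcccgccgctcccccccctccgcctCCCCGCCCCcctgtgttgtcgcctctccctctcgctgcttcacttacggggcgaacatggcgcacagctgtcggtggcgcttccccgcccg
Eed: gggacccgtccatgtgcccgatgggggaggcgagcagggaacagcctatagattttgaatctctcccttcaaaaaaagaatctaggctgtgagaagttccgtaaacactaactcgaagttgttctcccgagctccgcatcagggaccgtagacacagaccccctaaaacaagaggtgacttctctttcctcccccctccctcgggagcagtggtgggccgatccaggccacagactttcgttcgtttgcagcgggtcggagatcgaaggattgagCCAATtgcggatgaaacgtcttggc
Smarca4: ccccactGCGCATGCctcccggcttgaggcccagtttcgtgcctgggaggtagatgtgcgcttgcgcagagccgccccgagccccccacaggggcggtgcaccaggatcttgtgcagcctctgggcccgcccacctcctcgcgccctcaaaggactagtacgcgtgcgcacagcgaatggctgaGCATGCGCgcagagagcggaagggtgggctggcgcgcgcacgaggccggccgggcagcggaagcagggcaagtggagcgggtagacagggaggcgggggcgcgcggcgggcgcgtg
Chd4: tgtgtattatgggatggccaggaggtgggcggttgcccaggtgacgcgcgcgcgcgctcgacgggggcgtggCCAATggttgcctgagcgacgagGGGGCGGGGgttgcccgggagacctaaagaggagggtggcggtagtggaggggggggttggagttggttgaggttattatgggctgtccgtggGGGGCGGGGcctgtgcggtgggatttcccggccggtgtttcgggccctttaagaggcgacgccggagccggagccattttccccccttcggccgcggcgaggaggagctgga
In these 4 windows GC content was 75.7, 54.7, 72.3 and 68.3%, against a median of 52.7% over all 32851 mouse windows. They held 36, 17, 33 and 29 CpG dinucleotides, against a median of 7. Kmt2a had 1 match to the SP/KLF motif GGGGCGGGG, on the minus strand and so printed as its complement. Smarca4 had 2 matches to the NRF1 motif GCATGCGC, 1 on each strand. Chd4 had 2 SP/KLF matches and 1 CCAAT, and Eed had 1 CCAAT just after its start site. Of all windows 11.4% held GGGGCGGGG, 2.71% GCATGCGC and 37.4% CCAAT on either strand. Among the 45 windows of the 34 listed members these motifs were found in 11, 2 and 20 windows. Of the other motifs searched, the ETS motif CCGGAAGT was found in 1 member window, the YY1 motif AAGATGGCG in 1 and the cAMP element TGACGTCA in 0. The GATA motif AGATAA, bound by factors of blood and endothelial development, was found in 2 member windows and in 11.2% of all windows. The RUNX motif TGTGGT, bound by core factors of definitive blood formation, was found in 8 member windows and in 16.8% of all windows. The AP-1 motif TGANTCA, bound by Fos and Jun dimers that respond to growth signals, was found in 2 member windows and in 7.81% of all. The searched motifs do not contain one another, and a match describes letters, not a bound site.

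Each gene was next described by its main region, the strongest region over a start site (32 genes) or, where RefSeq windows gave none, the strongest within 1 kb of a gene end (9 genes). Per kilobase of region, and over all 12 libraries, the 4 highest main regions belonged to NuRD genes: Mbd3 (methyl-CpG-binding family) at 227 CPM per kb, Gatad2a (a bridging subunit) at 222, Rbbp4 (a histone chaperone shared with PRC2) at 168 and Gatad2b at 158. Mta2, Suz12 and Ezh2 followed at 133, 128 and 116 CPM per kb. The lowest were Chd3, a NuRD ATPase, at 6.17, Smarcd2 of SWI/SNF at 9.11, and Mta1 and the acetyltransferase gene Crebbp, both at 12.5. Within one complex the levels thus spanned most of this range, as between the start-site regions of Mbd3 and Mta1 in NuRD. Chd3 was read at a gene end. Rbbp4 shares its start region with Zbtb8os, Mta2 with Eml3, Bmi1 with Commd3, Kdm5a with Ccdc77 and Kmt2d's gene-end region with Prkag1, so those levels cannot be assigned to one gene.

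**Figure D1:**
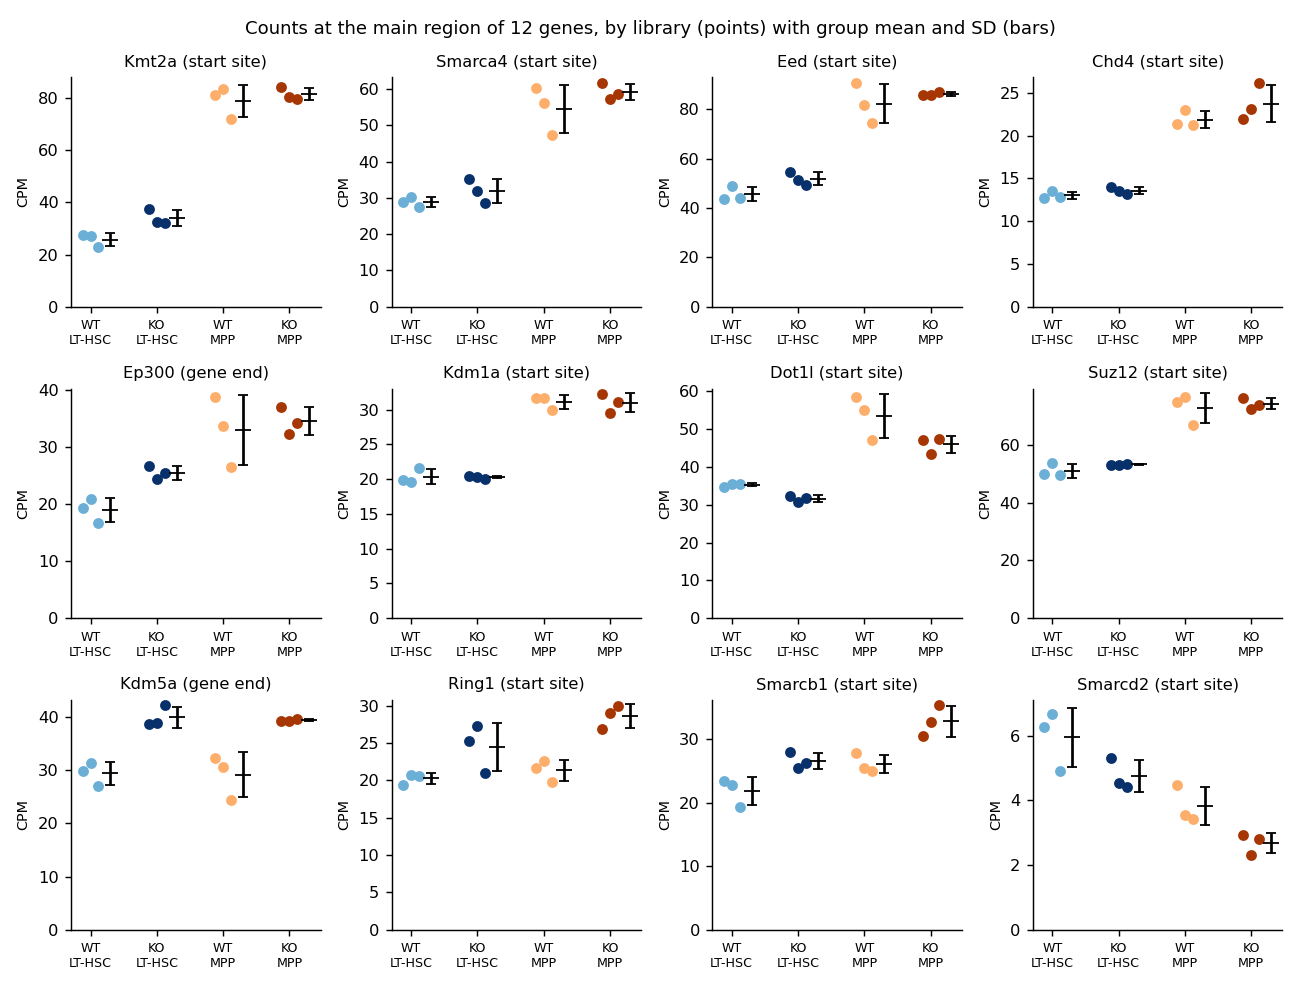
CPM at the main region of 12 of the 41 genes, 1 panel per gene, in each of the 12 libraries (points), with the mean and SD of each group of 3 (bars) and axes that start at 0. In the first 8 panels the MPP libraries lie above the LT-HSC libraries of the same genotype, Kdm5a, Ring1 and Smarcb1 have a higher mean in KO than in WT in both populations, and Smarcd2 is lowest in KO MPP.

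Comparing MPP with LT-HSC asks how these genes differ between stem cells and their first progeny. At start sites, member genes were mostly more accessible in MPP. In WT, 30 of 39 member start-site regions (76.9%) rose and 2 (5.13%) fell in edgeR's quasi-likelihood test at an adjusted p under 0.05, against 36.8% and 32.2% of all 11790 tested start-site regions. The 30 regions belonged to 26 genes, 36 of the 39 had a positive log2 change, and the median was 0.32. In KO mice 31 of 39 rose and 2 fell, against 34.8% and 30.6% of all start-site regions. In the share-adjusted fit 11 rose and 2 fell in WT, and 10 rose and 2 fell in KO. With a loess offset 23 rose in WT and 26 in KO. The share of all start-site regions called in these fits is not given here, so these counts have no background beside them. In bulk ATAC-seq a region open in more cells and a region cut more often per cell cannot be told apart.

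Kmt2a had the largest rise of any main region. Its start-site region (chr9:44881274-44881767) measured 27.4, 27.2 and 22.8 CPM in the WT LT-HSC libraries, and 81.2, 83.6 and 71.9 in WT MPP. Every MPP library was far above every LT-HSC library. The log2 change was 1.62 ± 0.07 (SE, adjusted p = 8.8e-19, edgeR), and 1.42 ± 0.11 in the share-adjusted fit. Of all 17 Kmt2a regions, this one included, 2 rose and 9 fell in WT MPP, against 34.6% and 35.1% of all regions. One that fell (chr9:44856331-44856757) went from 1.34 ± 0.12 to 0.283 ± 0.065 CPM (SD, n = 3), a log2 change of -2.20 ± 0.31 (SE).

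Smarca4's start-site region (chr9:21615819-21616255) measured 28.8, 30.2 and 27.6 CPM in WT LT-HSC and 60.2, 56.1 and 47.3 in WT MPP, so the groups did not overlap. It rose by 0.92 ± 0.08 (log2, SE; adjusted p = 2.1e-12, edgeR), and 8 of the gene's 14 regions rose and 0 fell. The Eed start site (chr7:89980309-89981382) measured 43.6, 48.8 and 44.2 CPM in WT LT-HSC and 90.6, 81.7 and 74.5 in WT MPP. Its log2 change was 0.85 ± 0.06 (SE; adjusted p = 2.3e-13, edgeR), again with no overlap. Chd4 (chr6:125095736-125096379) had 12.8, 13.5 and 12.9 CPM in WT LT-HSC against 21.3, 22.99 and 21.2 in WT MPP, a log2 change of 0.75 ± 0.08. Kdm1a, the LSD1 demethylase that removes H3K4 methylation, had 19.9, 19.6 and 21.6 CPM against 31.7, 31.6 and 29.9 (chr4:136602576-136603073), a log2 change of 0.61 ± 0.07. All 4 regions were also higher in KO MPP than in KO LT-HSC, by 0.88, 0.73, 0.81 and 0.61 in that order, and all kept an adjusted p under 0.05 in the share-adjusted fit (log2 0.58, 0.57, 0.69 and 0.54 in WT).

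By complex, the main regions that rose in WT MPP were 10 of 13 in NuRD, 5 of 5 in PRC2, 4 of 6 in PRC1, 5 of 6 among methyltransferases, 4 of 6 in SWI/SNF and 3 of 5 among demethylases and acetyltransferases. In PRC2 these were both catalytic subunits Ezh1 and Ezh2, the core subunits Eed and Suz12, and the accessory subunit Jarid2, with log2 changes from 0.25 to 0.85; in the share-adjusted fit that of Ezh1 was -0.00738. Summed over all its regions Ezh1 fell in WT MPP, with a log2 change of -0.12 (adjusted p = 0.018, edgeR). NuRD main regions that did not pass were those of Hdac2, Mta1 and Mta3. Over all start-site regions 36.8% rose and 32.2% fell in WT, and 34.8% and 30.6% in KO. The main regions of 9 genes are gene-end regions, for which no such share is given here. In KO, 33 of the 41 main regions rose and 2 fell, compared with 31 and 2 in WT; in the share-adjusted fit 11 rose and 3 fell in KO, and 13 and 3 in WT. Without that covariate the main regions of the same 2 genes fell in both genotypes. Men1, which encodes the MLL partner menin, went from 51.3 to 45.0 mean CPM in WT, a log2 change of -0.19 ± 0.06 (adjusted p = 0.0090, edgeR); without WT MPP replicate 3 its adjusted p was 0.0635. Smarcd2, needed for granulocyte differentiation, had 6.28, 6.66 and 4.92 CPM at its start site (chr11:106267456-106267927) in WT LT-HSC and 4.48, 3.54 and 3.42 in WT MPP. These groups did not overlap, and the log2 change was -0.64 ± 0.13 (SE, adjusted p = 9.5e-05, edgeR). Summed over all its regions Smarcd2 went the other way. It rose by 0.40 in WT (adjusted p = 4.2e-09) and by 0.41 in KO (adjusted p = 4.8e-09, edgeR).

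**Figure D2:**
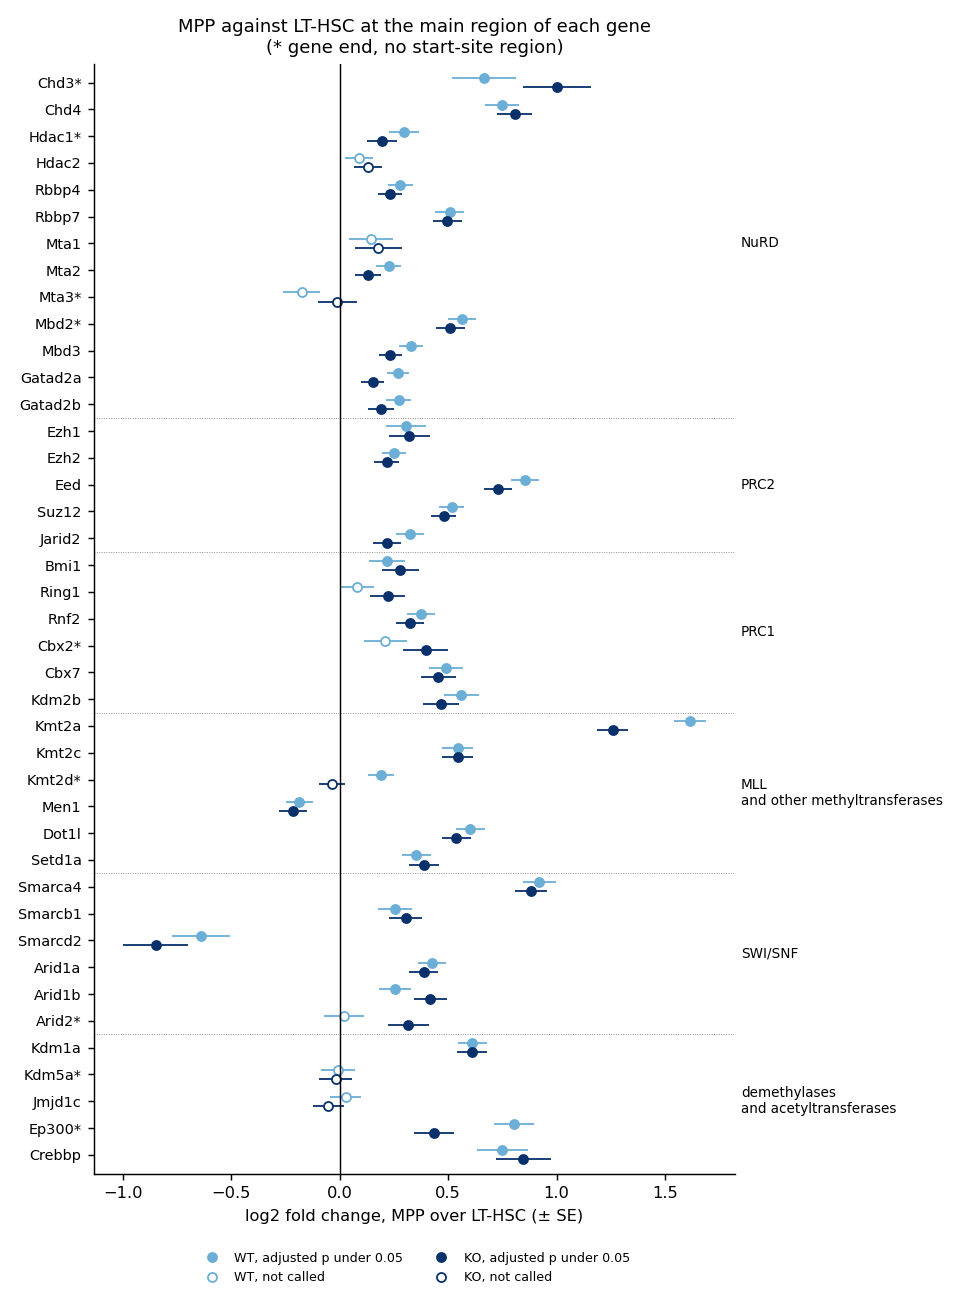
Log2 change of MPP against LT-HSC at the main region of each gene, with its standard error, in WT and in KO mice. Most genes lie above 0 in both genotypes, Kmt2a is highest, and Smarcd2 and Men1 lie below 0.

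Away from start sites the direction was mixed. Over all member regions 239 rose (34.7%) and 215 fell (31.3%) in WT MPP, against 34.6% and 35.1% of all 186373 tested regions, so these counts lie near the background. Gene-body regions gave 137 higher and 162 lower of 469, against 33.7% and 35.9% of all gene-body regions; in KO they were 139 and 158, against 32.4% and 35.3%. Between the libraries of the populations 473 member regions did not overlap in WT and 469 in KO, against 70.5% and 71.0% of all regions. In KO mice 242 member regions rose and 199 fell, against 33.3% and 34.4% of all. Regions higher in both genotypes numbered 217, which is 90.8% of those of WT and 89.7% of those of KO; 178 were lower in both, and 1 was called in opposite directions. NuRD regions leaned higher (73 higher and 40 lower of 156 in WT). PRC2 regions gave 40 higher and 29 lower of 105, methyltransferase regions 17 and 25 of 65, and SWI/SNF regions 55 and 72 of 201. These counts stand beside 34.6% higher and 35.1% lower of all regions in WT.

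**Figure D3:**
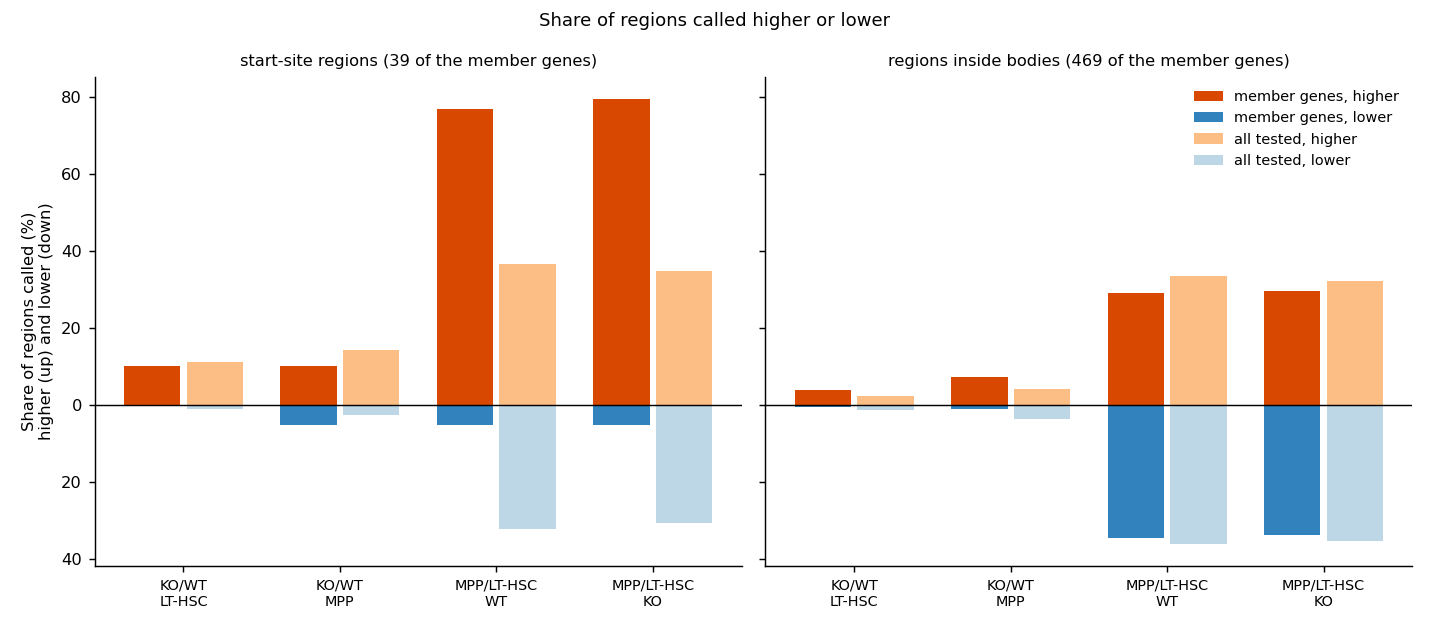
Share (%) of regions called higher (bars up from 0) or lower (bars down) in each comparison, for start-site regions in 1 panel and gene-body regions in the other, with member genes dark and all tested regions of that class pale. Member start sites stand at 76.9% higher in WT MPP against a background of 36.8%, while gene-body regions lie near their background.

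The strongest single differences lay in or near gene bodies rather than at start sites. Kdm5a, an H3K4 demethylase gene, was the nearest gene to a pair of regions beyond its end (chr6:120452339-120452756 and chr6:120453091-120453496). The second had 0.86, 0.562 and 1.42 CPM in WT LT-HSC and 12.6, 17.1 and 11.4 in WT MPP, a log2 change of 3.87 ± 0.18 (adjusted p = 3.8e-18, edgeR), and 3.60 ± 0.19 in KO. The first had 1.46, 0.674 and 0.81 CPM against 15.0, 15.7 and 10.9, a log2 change of 3.83 ± 0.17; it was picked out after its values were seen. Both were nearly closed in every LT-HSC library and open in every MPP library, in contrast to the Kdm5a gene-end region, whose log2 change was -0.01.

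Other large rises in WT MPP were found 52.9 kb from Eed (0.381 ± 0.047 to 3.99 ± 0.81 CPM, SD, n = 3; log2 3.39), inside Dot1l, the H3K79 methyltransferase gene (0.488 ± 0.28 to 4.41 ± 1.1; log2 3.20) and inside Arid1b (3.90 ± 0.98 to 17.3 ± 0.42; log2 2.15). Large falls were found inside Mta1 (2.87 ± 0.38 to 0.384 ± 0.037 CPM; log2 -2.89), 49.5 kb from Eed (3.20 ± 0.20 to 0.506 ± 0.13; log2 -2.62), inside Arid1a, a BAF subunit gene (chr4:133718707-133719383; 2.23 ± 0.065 to 0.36 ± 0.15; log2 -2.57), and inside Crebbp (11.1 ± 0.61 to 1.92 ± 0.34; log2 -2.50). Eed thus had a region of each kind a few kilobases apart. In KO mice the same Arid1a region fell by 3.06 and the Crebbp and Mta1 regions each by 2.74. Summed over all regions of a gene, 24 member genes rose and 5 fell in WT MPP, against 36.7% and 36.6% of all genes, with a median log2 change of 0.21 against 0.00. The 5 that fell were Mta1, Ezh1 and, of SWI/SNF, Arid1a, Arid1b and Arid2. In KO 29 member genes rose and 3 fell, against 38.0% and 34.5%.

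Comparing KO with WT asks how these genes differ where Phf6 is deleted. In LT-HSC few member regions differed. Of 688 regions 29 rose, in 15 genes, and 5 fell, in 5 genes, 4.22% and 0.727%; over all tested regions 3.28% rose and 1.47% fell. The median log2 change of member regions was 0.06 and that of all regions -0.00. The libraries of the 2 genotypes did not overlap in 158 of the 688 regions, against 24.2% of all regions. With total-count scaling 18 rose and 7 fell, with a loess offset 22 and 9, and in the share-adjusted fit 9 and 1. Over all 186373 tested regions those fits gave 3221 higher and 3884 lower, 3625 and 2661, and 1398 and 466, in that order. The number called was 17 without KO LT-HSC replicate 2 and without replicate 3, 20 without WT LT-HSC replicate 2, and 21 without WT LT-HSC replicate 1. Over all regions 1.82%, 2.44%, 2.84% and 2.67% were called in these fits, against 4.75% with all libraries. Of the called regions 9 kept their call under every alternative tried, and 6 of those lay in Jmjd1c.

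Jmjd1c encodes a JmjC-domain protein related to the H3K9 demethylases. It had 41 regions, of which 9 rose and 0 fell in KO LT-HSC. Of these, 7 were consecutive, over 15.3 kb of the gene body (chr10:67186888-67202175) that begins just downstream of the inner start-site region; the run was picked out after its values were seen. At the region chr10:67188925-67189444 the WT LT-HSC libraries had 3.84, 2.98 and 4.46 CPM and the KO LT-HSC libraries 6.41, 7.00 and 6.59. At chr10:67201752-67202175 they had 0.602, 0.758 and 0.753 CPM in WT and 1.38, 1.77 and 1.69 in KO. In all 7 regions every KO library was above every WT library.

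The log2 changes of the 7 Jmjd1c regions were 0.69, 0.83, 0.63, 1.09, 1.07, 0.70 and 1.18 in genome order. Their adjusted p ran from 0.00041 to 0.017 (edgeR). The region starting at 67190267 lost its call without KO LT-HSC replicate 3 or WT LT-HSC replicate 2, and the region starting at 67197855 without KO LT-HSC replicate 2 or 3 or WT LT-HSC replicate 3. Both also lost it in the share-adjusted fit, and the other 5 kept it under every alternative. The start-site region just upstream (chr10:67185489-67185897) had a log2 change of -0.00, and the next region downstream 0.27, which did not pass. In MPP the 7 regions had log2 changes from -0.10 to 0.41, and 1 of them passed (adjusted p = 0.044); that call was lost without KO MPP replicate 1, 2 or 3 or WT MPP replicate 1 or 2. The summed mean of the 7 regions was 18.8 CPM in WT and 32.9 in KO LT-HSC, and 21.8 and 24.7 in MPP. The difference between the populations was tested and did not pass in any of the 7 (adjusted p from 0.25 to 0.83, edgeR interaction).

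**Figure D4:**
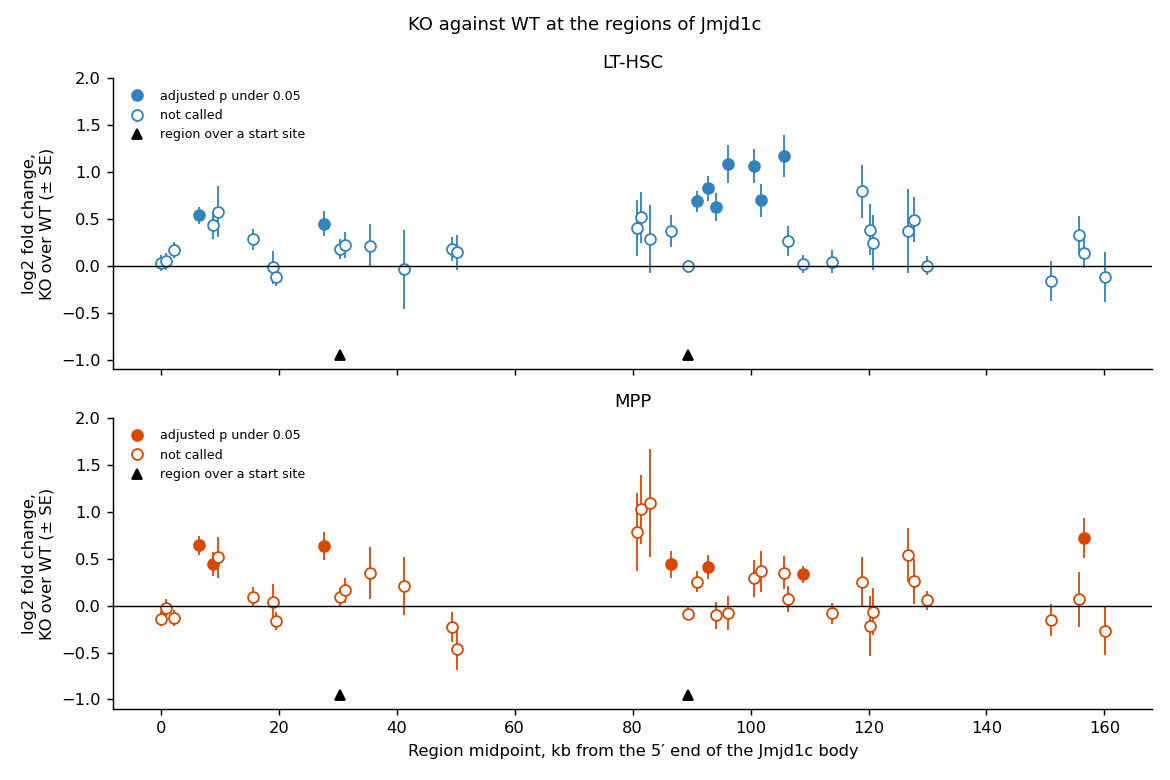
Log2 change of KO against WT at the regions of Jmjd1c by distance from the 5′ end of the gene, with standard errors, in LT-HSC and in MPP; triangles along the bottom mark regions over a start site, and filled circles have an adjusted p under 0.05. The 7 consecutive regions called in LT-HSC lie between 0.63 and 1.18 in LT-HSC and between -0.10 and 0.41 in MPP.

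A further Jmjd1c region rose in both populations. At chr10:67102442-67103234, in the gene body, WT LT-HSC libraries had 14.9, 12.6 and 15.5 CPM against 20.7, 19.95 and 21.9 in KO. WT MPP libraries had 4.94, 4.96 and 4.97 CPM against 8.09, 8.22 and 6.93 in KO. KO libraries were above WT libraries in both populations without overlap, and the region itself was lower in MPP. KO against WT gave a log2 change of 0.54 ± 0.09 for LT-HSC (adjusted p = 0.00056). For MPP it was 0.64 ± 0.10 (adjusted p = 0.00028, edgeR). Both calls held under every alternative tried.

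At main regions 6 genes rose in KO LT-HSC (Kmt2a, Kmt2d, Kdm5a, Ep300, Ring1 and Smarcb1) and 0 fell. Of the 39 start-site regions 4 rose and 0 fell, against 11.2% and 0.899% of all start-site regions. The gene-end share was also higher in every KO than in every WT LT-HSC library. In the share-adjusted fit 1 main region rose and 1 fell, and with a loess offset 4 rose and 3 fell. The Kmt2a start site had 27.4, 27.2 and 22.8 CPM in WT and 37.4, 32.5 and 32.0 in KO LT-HSC, a log2 change of 0.40 ± 0.07 (adjusted p = 0.0016, edgeR). In the share-adjusted fit its adjusted p was 0.0726. In MPP, where the site was more open, the change was 0.05 with an adjusted p of 0.73, and the interaction of -0.36 ± 0.10 did not pass (adjusted p = 0.40). Arid1a rose at an outer start site (chr4:133756637-133757154), picked out after its values were seen, from 38.0, 36.04 and 32.6 CPM to 45.1, 46.6 and 41.3, by 0.32 ± 0.07 (adjusted p = 0.0040, edgeR; 0.0696 in the share-adjusted fit).

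Kmt2d, which encodes an MLL-type methyltransferase active at enhancers, had 43.5, 42.9 and 42.1 CPM in WT and 55.6, 53.3 and 55.9 in KO LT-HSC at the region over its 3′ end (chr15:98831261-98831733), beside Prkag1. All KO libraries were above all WT libraries, the log2 change was 0.36 ± 0.06 (adjusted p = 0.00066, edgeR), and the call held under every alternative. The gene-end region of Kdm5a (chr6:120363884-120364285), shared with Ccdc77, had 29.8, 31.4 and 27.1 CPM in WT and 38.8, 38.9 and 42.3 in KO LT-HSC. The MPP values were 32.4, 30.7 and 24.5 for WT against 39.3, 39.3 and 39.7 for KO. The groups did not overlap in either population, with log2 changes of 0.44 ± 0.08 (adjusted p = 0.0011) and 0.43 ± 0.08 (adjusted p = 0.00073, edgeR). In the share-adjusted fit these adjusted p-values were 0.107 and 0.0816.

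Ep300, an acetyltransferase gene, rose by 0.43 ± 0.10 at its gene-end region in KO LT-HSC (19.2, 20.8 and 16.8 CPM against 26.7, 24.3 and 25.5; adjusted p = 0.0081, edgeR), and the adjusted p was 0.447 in the share-adjusted fit. Cbx7, a PRC1 chromodomain subunit gene, had a gene-body region (chr15:79950130-79950823) with 15.0, 13.5 and 14.6 CPM in WT and 18.6, 19.6 and 23.5 in KO LT-HSC. The groups did not overlap, and its log2 change of 0.51 ± 0.09 (adjusted p = 0.0015, edgeR) held under every alternative. The start site of Ring1, a PRC1 ubiquitin ligase gene, had 19.4, 20.8 and 20.6 CPM in WT and 25.3, 27.2 and 20.9 in KO LT-HSC, and that of Smarcb1, a core SWI/SNF subunit gene, 23.4, 22.8 and 19.3 against 27.99, 25.5 and 26.2. Both rose by 0.28 ± 0.08, with adjusted p of 0.040 and 0.030. Both calls were lost in several fits that left out 1 library, with log2 changes from 0.20 to 0.30 for Ring1 and from 0.21 to 0.32 for Smarcb1 in those fits. In the share-adjusted fit the adjusted p was 0.311 and 0.265. Ring1's adjusted p was 0.255 without KO LT-HSC replicate 2, 0.136 without replicate 1, and 0.141, 0.0671 and 0.0613 without WT LT-HSC replicates 1, 2 and 3. Smarcb1's was 0.135, 0.059 and 0.0659 without KO LT-HSC replicates 1, 2 and 3, and 0.149 without WT LT-HSC replicate 3.

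The largest rise in KO LT-HSC was at a weak region inside Jarid2 (chr13:44915320-44915752), with 0.401, 0.112 and 0.347 CPM in WT and 0.661, 0.814 and 0.713 in KO, a log2 change of 1.33 ± 0.37 (adjusted p = 0.034, edgeR). It lost its call without KO LT-HSC replicate 1, 2 or 3 or WT LT-HSC replicate 2 (adjusted p from 0.0682 to 0.162), and in the share-adjusted fit (0.210). The 5 regions that fell in KO LT-HSC belonged to Mbd2, Arid1a, Arid1b, Cbx2 and Mbd3, with log2 changes from -0.55 to -0.23 and adjusted p from 0.026 to 0.049. Each of the 5 falls lost its call without KO LT-HSC replicate 2 (adjusted p from 0.141 to 0.185) and without replicate 3 (from 0.0835 to 0.195), and in the share-adjusted fit (from 0.0512 to 0.360). Gene bodies held 19 of the rises and 2 of the falls, of 469 regions, against 2.51% and 1.24% of all gene-body regions. By complex, regions that rose and fell were 2 and 2 of 156 in NuRD, 5 and 0 of 105 in PRC2, 3 and 1 of 66 in PRC1, 3 and 0 of 65 among methyltransferases, 5 and 2 of 201 in SWI/SNF, and 11 and 0 of 95 among demethylases and acetyltransferases. Over all regions 3.28% rose and 1.47% fell in KO LT-HSC.

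In MPP, KO libraries differed from WT at more member regions: 52 rose, in 22 genes, and 10 fell, in 8 genes, or 7.56% and 1.45%. Over all tested regions 5.08% rose and 3.61% fell. The median log2 change of the members was 0.09 and that of all regions -0.01, and 189 of 688 members did not overlap between genotypes, against 28.0% of all regions. With total-count scaling 45 rose and 16 fell, with a loess offset 49 and 17, and in the share-adjusted fit 19 and 7. Over all 186373 tested regions those fits gave 7673 higher and 8370 lower, 8478 and 7714, and 3283 and 2329, in that order. The number called was 28 without KO MPP replicate 2, 26 without KO MPP replicate 3 and 37 without WT MPP replicate 2. Over all regions 3.58%, 3.41% and 5.22% were called in these fits, against 8.70% with all libraries. Gene bodies held 34 of the rises and 4 of the falls, of 469 regions, against 4.28% and 3.50% of all gene-body regions. Start sites gave 4 rises and 2 falls of 39, against 14.4% and 2.43% of all start-site regions. That balance turned with the scaling. With total-count scaling 3 rose and 4 fell, with a loess offset 3 and 6, and in the share-adjusted fit 1 and 4. Without WT MPP replicate 3 the balance was 3 and 4. The share of all start-site regions called in these fits is not given here.

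Jarid2, the PRC2 accessory subunit gene that helps target the complex, had 7 of its 57 regions higher and 0 lower in KO MPP. Its most clearly changed region (chr13:44869423-44869831, in the gene body) had 44.8, 43.3 and 36.1 CPM in WT MPP against 60.5, 58.4 and 70.3 in KO MPP. In LT-HSC it had 32.1, 29.7 and 27.4 in WT and 36.4, 31.7 and 28.6 in KO. The genotypes were apart in MPP and overlapped in LT-HSC. KO against WT gave 0.60 ± 0.08 in MPP (adjusted p = 3.9e-05, edgeR), under every alternative, and 0.12 ± 0.09 in LT-HSC (adjusted p = 0.44). The interaction of 0.48 ± 0.12 did not pass (adjusted p = 0.29).

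Another Jarid2 region, picked out after its values were seen (chr13:44819349), rose in both populations. It had 4.44, 4.89 and 4.28 CPM in WT and 6.83, 6.79 and 6.59 in KO LT-HSC, and 10.9, 11.3 and 13.5 in WT and 15.4, 16.1 and 15.0 in KO MPP, with no overlap in either. Its log2 changes were 0.57 (adjusted p = 0.0024) and 0.39 (adjusted p = 0.0067, edgeR); the latter was 0.0514 without KO MPP replicate 2. Summed over its regions Jarid2 rose by 0.23 in MPP, with an adjusted p of 0.000172 (edgeR). Over the 5 PRC2 genes, Jarid2 included, 12 of 105 regions rose and 0 fell, against 5.08% and 3.61% of all regions. Ezh1 rose at a region 5.6 kb outside the gene (chr11:101232105-101232543; 7.39, 7.09 and 7.48 CPM in WT and 10.04, 11.1 and 10.3 in KO MPP; log2 0.52 ± 0.10, adjusted p = 0.0010).

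In PRC1, Ring1 had its only region at its start site (chr17:34024482-34024884), with 21.7, 22.6 and 19.8 CPM in WT MPP against 26.9, 29.0 and 30.0 in KO MPP. KO lay above WT throughout, by 0.42 ± 0.08 (adjusted p = 0.0011, edgeR), and the call held under every alternative. Cbx7's region named above rose by 0.34 (adjusted p = 0.026), and lost the call without KO MPP replicate 2 (0.0513), KO MPP replicate 3 (0.138) or WT MPP replicate 2 (0.160). Of 66 PRC1 regions 7 rose and 1 fell, against 5.08% and 3.61% of all regions.

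NuRD genes changed in both directions in KO MPP, with 12 regions higher and 6 lower of 156, against 5.08% and 3.61% of all regions. Chd3 held 5 of the rises among its 11 regions, and summed over them it rose by 0.24 ± 0.04 (adjusted p = 0.00056, edgeR). At 1 of them, picked out after its values were seen (chr11:69379615-69380098, outside the gene), WT MPP had 4.46, 4.27 and 3.89 CPM and KO MPP 5.87, 5.63 and 7.63; its log2 change of 0.60 ± 0.13 (adjusted p = 0.0032) was lost without KO MPP replicate 3 (0.0659) and in the share-adjusted fit (0.0937). Mta3, a scaffold subunit gene, had regions of both kinds. Inside the gene (chr17:83768304-83768817) WT MPP had 5.16, 5.75 and 6.12 CPM and KO MPP 8.05, 8.12 and 8.14 (log2 0.52 ± 0.10, adjusted p = 0.0015). About 10 kb outside it (9975 bases; chr17:83695771-83696188) WT MPP had 12.8, 14.4 and 13.3 and KO MPP 10.2, 9.43 and 9.35 (log2 -0.49 ± 0.09, adjusted p = 0.00065, edgeR). Neither pair of groups overlapped, and both calls held under every alternative. The main regions of the 13 NuRD genes had log2 changes from -0.08 to 0.12 in MPP and none passed; the same held in LT-HSC, with changes from -0.26 to 0.14.

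Dot1l fell in KO MPP. At its gene-body region chr10:80792330-80792856 WT MPP had 27.2, 29.5 and 26.6 CPM and KO MPP 21.6, 21.2 and 19.999. The groups did not overlap, and the log2 change of -0.41 ± 0.08 (adjusted p = 0.0014, edgeR) held under every alternative. Its start site had 58.4, 55.0 and 47.1 CPM in WT and 47.1, 43.4 and 47.5 in KO MPP, overlapping groups, with a log2 change of -0.22 ± 0.07 (adjusted p = 0.033) that was lost without KO MPP replicate 2 (0.186), KO MPP replicate 3 (0.0639), WT MPP replicate 1 (0.200) or WT MPP replicate 2 (0.103). Summed over its regions Dot1l fell by 0.16 in MPP (adjusted p = 0.0017) and by 0.13 in LT-HSC (adjusted p = 0.011, edgeR), the latter lost without KO LT-HSC replicate 2 (0.0554). The Setd1a start site, of another H3K4 methyltransferase gene, rose by 0.22 ± 0.07 (adjusted p = 0.038), a call lost on leaving out any one of KO MPP replicates 1, 2 and 3 and WT MPP replicates 1 and 3 (adjusted p from 0.051 to 0.134) and in the share-adjusted fit (0.592).

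Among SWI/SNF genes the Smarcb1 start site (chr10:75921189-75921843) had 27.7, 25.4 and 25.0 CPM in WT MPP against 30.4, 32.7 and 35.3 in KO MPP. These groups did not overlap; the log2 change was 0.33 ± 0.07 (adjusted p = 0.0053, edgeR), 0.0565 without KO MPP replicate 3 and 0.109 in the share-adjusted fit. The Smarcd2 start site had 4.48, 3.54 and 3.42 CPM in WT MPP against 2.92, 2.32 and 2.80 in KO MPP. It fell by 0.53 ± 0.15 on the log2 scale (adjusted p = 0.024), lost without KO MPP replicate 2 (0.160), KO MPP replicate 3 (0.0605) or WT MPP replicate 1 (0.151). Arid1b, the BAF subunit gene with the most regions, did not pass when summed over them (log2 0.03, adjusted p = 0.505, edgeR). Its largest called rise without overlap between groups lay in the gene body. At chr17:5002505-5002964 WT MPP had 1.80, 1.67 and 2.03 CPM and KO MPP 3.03, 3.55 and 3.67, apart from each other, with a log2 change of 0.92 ± 0.17 (adjusted p = 0.0011, edgeR) that held under every alternative.

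**Figure D5:**
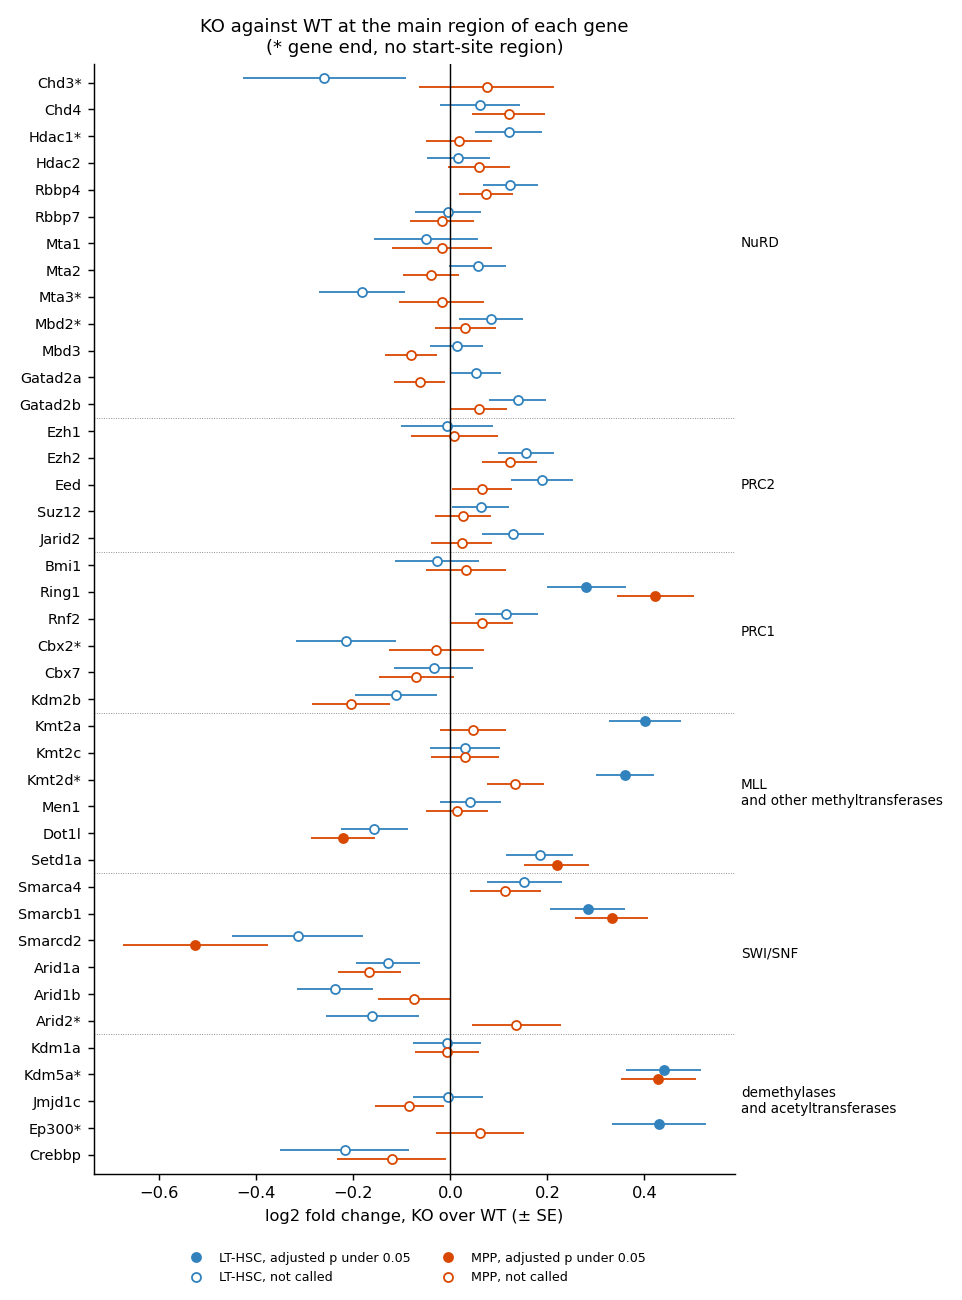
Log2 change of KO against WT at the main region of each gene, with its standard error, in LT-HSC and in MPP. Most genes lie close to 0; Kdm5a is raised in both populations, Kmt2a in LT-HSC, Ring1 and Smarcb1 in both, and Smarcd2 is lowest in MPP.

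The 2 genotype comparisons share no library, but LT-HSC and MPP libraries may come from the same animals, so they may not be independent. The difference in Cre-ERT2 is also the same in both comparisons. In both, 13 regions rose, 44.8% of the 29 of LT-HSC and 25.0% of the 52 of MPP, 0 fell in both, and 0 were called in opposite directions. Of the 29 that rose in LT-HSC 25 had a positive log2 change in MPP, and of the 52 that rose in MPP 46 had one in LT-HSC. The same overlap over all regions is not given here, so these counts have no background beside them. The interaction of genotype and population passed at 0 of 688 member regions (edgeR), against 0.00805% of all regions, and at 0 of 41 summed genes, against 0.0212%. At an unadjusted p under 0.05 it gave 61 member regions, 8.87%, against 7.57% of all regions. DESeq2 and limma-voom also called 0. The fit with the replicate number within each genotype as a block called 5, against 0.128% of all regions in that fit. The 3 member regions with the lowest p were those of Jmjd1c (chr10:67192358-67192780, -1.17 ± 0.28), Jarid2 and Mta3 (0.53 ± 0.14), with adjusted p of 0.25, 0.29 and 0.32.

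Summed over all regions of a gene, 5 member genes rose in KO LT-HSC (Kdm5a, Smarcb1, Jmjd1c, Kmt2d and Eed) and 3 fell (Cbx2, Dot1l and Mbd3), against 8.09% and 8.93% of all genes. Kdm5a had the largest rise, 0.31 ± 0.07 (adjusted p = 0.0056, edgeR), which was 0.18 with an adjusted p of 0.150 in the share-adjusted fit. That fit ended 5 of these 8 calls and 5 of the 12 in MPP. The count of 8 was 3 without KO LT-HSC replicate 2 or WT LT-HSC replicate 2, and 5 without KO LT-HSC replicate 1 or WT LT-HSC replicate 3. In MPP 9 rose (Ring1, Smarcb1, Chd3, Jarid2, Setd1a, Kdm5a, Kmt2d, Ezh2 and Kdm2b) and 3 fell (Dot1l, Mbd3 and Mta3), against 15.4% and 13.9%. Ring1 rose by 0.40 ± 0.07 and Smarcb1 by 0.29 ± 0.06. Dot1l and Mbd3 fell in both populations, and Kdm5a, Smarcb1 and Kmt2d rose in both. In every fit that left out 1 library, 2 of the 8 genes kept their call in LT-HSC and 8 of the 12 in MPP; the other 4 in MPP were Kdm2b, Kdm5a, Mta3 and Setd1a.

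The remaining genes of the same complexes were read from lists of subunits and partners. Among 10 other NuRD genes with a region, 7 regions rose and 1 fell of 219 in KO LT-HSC, and 14 and 2 in KO MPP, where over all regions 3.28% rose and 1.47% fell in LT-HSC and 5.08% and 3.61% in MPP. Bcl11a, a transcription factor that recruits NuRD, rose at a region near the gene in KO LT-HSC (5.40 ± 0.138 to 8.72 ± 0.896 CPM, SD, n = 3; log2 0.68 ± 0.11, adjusted p = 0.00056, edgeR). Zfpm1, the GATA1 cofactor FOG1, rose inside the gene in KO MPP (2.67 ± 0.206 to 4.69 ± 0.117 CPM; log2 0.80 ± 0.13, adjusted p = 0.00029). Other MLL and COMPASS genes gave 16 higher and 0 lower of 255 in LT-HSC and 24 and 5 in MPP. Other PRC2 genes gave 2 and 0 of 82, then 7 and 1; other PRC1 genes 9 and 5 of 442, then 24 and 10; other SWI/SNF genes 8 and 2 of 230, then 8 and 7. Other demethylases and acetyltransferases gave 10 and 3 of 255 in LT-HSC and 15 and 1 in MPP.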

How the data were processed

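The authors deposited 1 table of raw counts per region, whole numbers over a union set of regions, per the file headers. The submitters' processing notes name build GRCm38 and, with no order or settings, Bowtie2, featureCounts, cutadapt, DESeq2 1.22.1 and MACS2 2.1.1. Regions were assigned to RefSeq gene bodies (GRCm38.p6), 172530 of them. Counts were tested with edgeR 4.0.16 in R 4.3.3 (glmQLFit and glmQLFTest, 2-sided; TMM scaling; filterByExpr; 1 mean per group over all 12 libraries; biological coefficient of variation 8.17%), with Benjamini-Hochberg adjustment over 186373 regions or 18829 genes and a threshold of 0.05. CPM are counts over the TMM-scaled library total; SE is the log2 change over the root of F. A region overlapping several bodies counted for each. Alternatives used limma 3.58.1, DESeq2 1.42.0, other scalings and filters, covariates and left-out libraries. On simulated counts for KO against WT in LT-HSC over 186373 regions, 73.5% of 200 changed regions were recovered with 7 false calls where the simulated dispersions followed the trend, and 70.5% with 31 where they were region by region. The changed regions were drawn only from those with higher mean counts, and the groups otherwise had equal means. These figures therefore do not cover weak regions, changes smaller than those simulated, or data in which the populations differ.

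Regions to name were drawn by rule, and part of them is printed: each gene's main region, and per comparison up to 12 genes per direction whose called region had the largest change and no overlap between groups, 1 region per gene, or else the 3 lowest p; for other lists at most 2 regions per list and direction, and up to 6 promoters with the lowest p. The members and lists were chosen with earlier results of these data known. With 3 libraries against 3 an exact permutation test cannot go below 0.1, so none is given. Exon and intron positions were not used here, and regions shared by neighbouring genes cannot be split.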

Additional observations from a re-analysis of the deposited data

How the results depend on the processing

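The alternative that moved counts most was the share of each library's counts in gene-end regions as a covariate, which is itself tied to population and genotype. With it, called member regions numbered 10 for KO against WT in LT-HSC (34 without it), 26 in MPP (62), 279 for WT MPP against WT LT-HSC (454) and 268 for the same in KO (441), and member genes on summed counts 3, 7, 17 and 18 (8, 12, 29 and 32). Of the named regions and genes 184 kept their side of the threshold there and 123 lost their call. It turned the sign of 6 named values for MPP against LT-HSC, all in KO but Ezh1: Hdac1 -0.0208, Mta2 -0.0181, Gatad2b -0.0331, Ep300 -0.0764 and summed Kmt2d -0.00833, and in WT Ezh1 -0.00738; a loess offset gave Gatad2a -0.0520 in KO. None of these 7 passed the threshold there, and the cause was not tested. Over all called member regions 4 in WT and 10 in KO changed sign under at least 1 alternative. Leaving out 1 library at a time gave 17 to 25 called regions for KO against WT in LT-HSC, 26 to 57 in MPP, 425 to 440 for WT MPP against WT LT-HSC, 406 to 422 for KO and 0 to 0 for the interaction; member genes ranged from 3 to 6, 9 to 13, 28 to 30, 28 to 33 and 0 to 0. Fewer samples enter those fits. Of the called regions, 9 of 34 in LT-HSC, 12 of 62 in MPP, 266 of 454 in WT and 252 of 441 in KO kept their call under every alternative.

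Replicate numbers are shared by the groups, but nothing in the labels says that a number marks an animal. Deviations of same-numbered LT-HSC and MPP libraries correlated at 0.073, 0.089 and 0.114 in WT and at 0.054, 0.064 and 0.055 in KO, each library best with its own number within its genotype, a hint from the data only. Between genotypes other numbers correlated as strongly, as KO LT-HSC 1 with WT LT-HSC 2 at 0.066 and KO MPP 3 with WT MPP 1 at 0.058. With the replicate number within each genotype as a block the interaction gave 5 regions (2 higher, 3 lower) and 1 gene. Over all regions that fit called 0.128%. With the number shared across genotypes as a block, KO against WT gave 37 regions in LT-HSC and 73 in MPP.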
